A study of Mus musculus with 15 samples.

Results

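The IFIT genes encode interferon-induced proteins with tetratricopeptide repeats, and Ifit1, Ifit2, Ifit3 and Ifit3b were followed together with Ifi44 and Ifi35 in WEHI-164 tumors injected with poly(I:C). These 6 genes were chosen by name, with earlier results of these data known. All 6 were among the 32543 genes of the deposited table and among the 15494 that passed the minimum level for testing. WEHI-164 is a mouse fibrosarcoma cell line, grown here under the skin of female BALB/c mice with the label genotype WT. Poly(I:C), a synthetic form of double-stranded RNA, mimics a replicating virus. The design asked how tumor gene expression developed over a course of the compound, with 3 tumors untreated on day 0 and 3 tumors taken at each of day 1, day 3, day 5 and day 7. Days count from the first dose, so with 6 daily doses the day 7 tumors were taken after dosing had ended. The labels gave 1 µg in 25 µL injected into the tumor each day, with 6 doses planned, but other descriptions of the schedule in this study gave a higher dose, so the dose behind these samples is uncertain. The 15 samples were labelled as separate tumors, and none was labelled as injected with vehicle. The labels and the methods call the day 0 tumors untreated, while other descriptions of this time course speak of vehicle-treated tumors, so what the reference received is also uncertain. Injection, poly(I:C), tumor age and harvest day therefore cannot be told apart.

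Type I interferon is made when sensors of double-stranded RNA are engaged. It binds its receptor, the kinases JAK1 and TYK2 are activated, and transcription factors, STAT2 and IRF9 among them, move to the nucleus and bind interferon-stimulated response elements in promoters. IFIT genes are among the classical targets of this pathway and can also be switched on by IRF3 directly. IFIT1 binds viral RNA whose cap lacks the methyl marks of host messenger RNA and blocks its translation. IFIT2 also binds RNA and has been tied to cell death, and IFIT3 lacks strong RNA binding of its own and acts in complexes with the other IFIT proteins. IFI44 is a cytoplasmic interferon-induced protein, and IFI35 forms a complex with NMI.

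The promoters of Ifit1, Ifit3, Ifit3b and Ifi44 are printed because these are the genes whose windows held a match to the response element. Each sequence is the 200 bases before the RefSeq transcript start on GRCm38, read 5′ to 3′ on the gene's strand, with the matched bases in capitals. The core searched was GAAANNGAAA, on both strands, from 250 bases before to 50 bases after each start. A shorter core, AAANNGAAA, which every match of the longer one also holds, marks the capitals of Ifi44.
Ifit1, chr19:34640689-34640888, plus strand: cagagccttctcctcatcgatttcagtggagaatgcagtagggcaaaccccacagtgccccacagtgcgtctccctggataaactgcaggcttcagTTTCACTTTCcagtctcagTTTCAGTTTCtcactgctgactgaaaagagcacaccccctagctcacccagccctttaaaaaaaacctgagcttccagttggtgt
Ifit3, chr19:34583329-34583528, plus strand: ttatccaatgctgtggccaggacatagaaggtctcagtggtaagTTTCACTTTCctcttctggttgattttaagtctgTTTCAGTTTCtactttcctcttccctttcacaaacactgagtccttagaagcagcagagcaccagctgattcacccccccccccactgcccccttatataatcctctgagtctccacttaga
Ifit3b, chr19:34607757-34607956, plus strand: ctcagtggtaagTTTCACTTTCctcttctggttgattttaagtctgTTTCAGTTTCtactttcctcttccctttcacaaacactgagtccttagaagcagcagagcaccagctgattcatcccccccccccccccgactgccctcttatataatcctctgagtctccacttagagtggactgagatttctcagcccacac
Ifi44, chr3:151749911-151750110, minus strand: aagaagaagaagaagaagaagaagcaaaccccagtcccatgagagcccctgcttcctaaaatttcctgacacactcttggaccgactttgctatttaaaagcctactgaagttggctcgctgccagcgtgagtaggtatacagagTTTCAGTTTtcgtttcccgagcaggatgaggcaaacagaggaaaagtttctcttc

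The longer core was in the windows of 3 of the 6 genes, beside 3.99% of the 27025 genes with such windows. It was in 3.44% of all 32851 RefSeq promoter windows of this length. Ifit1 held it 104 and 85 bases before the start, Ifit3 156 and 122 bases before, and Ifit3b 188 and 154 bases before. The shorter core was found for 12.1% of these genes, in 10.6% of all windows, and added Ifi44, with a match 55 bases before its start. Neither core was in the windows of Ifit2, which has a pair of annotated starts, or of Ifi35. Letters that match a core are not a measurement of binding, and windows without a match say nothing of sites farther away.

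Ifit3 and Ifit3b are near-identical neighbors, and their 250 bases before the start aligned with 216 identical bases, 2 mismatches and 64 gap positions. Their transcripts were 98.0% identical over the aligned bases. Of the 31-base words of the Ifit3 transcripts 38.2% occurred in no other gene, and for Ifit3b it was 44.5%. A read of 100 bases could be told apart from every other gene at 68.3% of the positions of Ifit3 and 72.6% of those of Ifit3b, so the split between them is an estimate. The corresponding share of words was 89.03% for Ifit1, 100.0% for Ifit2, 99.2% for Ifi44 and 86.6% for Ifi35. Ifi35 overlaps the antisense gene Gm11626, with which it shared 13.4% of its words. Whether the counting used strand is not given in the sources used here.

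The 4 Ifit genes lie on chromosome 19 within 99.3 kb, in a cluster with their relatives Ifit1bl1 and Ifit1bl2. In the GENCODE annotation of GRCm38, Ifit2 spans chr19:34550694-34576419, Ifit3 chr19:34583531-34588731, Ifit3b chr19:34607970-34613401 and Ifit1 chr19:34640871-34650009, all on the plus strand. Ifi44 spans chr3:151730922-151749960 on the minus strand, and Ifi35 chr11:101448407-101458698 on the plus strand. Reads were assigned to whole transcripts, so the values cover exons and untranslated regions together.

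The libraries held 23713090 to 31913106 estimated counts. Each member had at least 224 counts in every tumor, the lowest being Ifit3b, and at most 14689, for Ifi44. Replicate 1 of day 3 stood apart from the other 14 tumors on the first principal component, at 144 against -77.0 to 45.1. Replicate 3 of day 1 held the highest level of all 6 genes. Results are therefore given below with and without these tumors where they matter. Levels are CPM, counts scaled to library size with TMM composition factors, and log2 fold changes are from edgeR's quasi-likelihood fit over all 15 tumors, with Benjamini-Hochberg adjustment over 15494 genes and 0.05 as the threshold of a call. In bulk tumor RNA, more cells that express a gene and more RNA per cell cannot be told apart.

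Every one of the 6 genes was higher on days 1 and 3 than in any untreated tumor, had a day 5 mean between those of days 0 and 3, and overlapped the untreated tumors on day 7. Of all genes, 5.76% were above every untreated tumor on day 1 and 19.4% on day 3. By mean level, day 1 stood at 1.85-fold (Ifi35) to 4.98-fold (Ifit3b) the day 0 level, day 3 at 1.62-fold (Ifi35) to 3.47-fold (Ifit3b), day 5 at 1.14-fold (Ifit1) to 1.71-fold (Ifi44), and day 7 at 0.957-fold (Ifi35) to 1.08-fold (Ifi44). edgeR called 0 of the 6 genes, and 0% of all genes, in each of the 9 comparisons.

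Ifit1 stood at 43.1, 47.0 and 42.3 CPM in the untreated tumors. On day 1 it was at 88.5, 64.1 and 201 CPM, and on day 3 at 61.0, 118 and 73.8 CPM. On day 5 it was at 36.8, 68.9 and 44.5 CPM and on day 7 at 47.6, 36.8 and 52.0 CPM. All 6 tumors of days 1 and 3 lay above all untreated ones, and the tumors of days 5 and 7 overlapped them. The mean was 44.1 ± 2.504 CPM (SD, n = 3) on day 0 and 118 ± 73.1 CPM on day 1. The log2 fold change against day 0 was 1.42 ± 0.38 (SE) at day 1 and 0.93 ± 0.38 at day 3. It was 0.18 ± 0.38 at day 5 and 0.04 ± 0.38 at day 7.

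Ifit2, at the other end of the cluster, stood at 58.0, 72.2 and 70.5 CPM untreated. It was at 102, 86.7 and 306 CPM on day 1, at 125, 163 and 106 CPM on day 3, at 74.1, 111 and 65.7 CPM on day 5 and at 71.3, 62.4 and 59.6 CPM on day 7. The pattern was that of Ifit1, with no overlap on days 1 and 3 and overlap on days 5 and 7. Its log2 fold changes were 1.303 ± 0.39, 0.98 ± 0.39, 0.32 ± 0.39 and -0.05 ± 0.39 on days 1, 3, 5 and 7.

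Ifit3 stood at 36.3, 45.9 and 38.5 CPM untreated. Day 1 gave 86.1, 71.6 and 333 CPM, day 3 gave 109, 175 and 91.3 CPM, day 5 gave 41.4, 83.4 and 45.2 CPM, and day 7 gave 43.5, 39.3 and 43.5 CPM. The 3 tumors of day 7 lay within the untreated range, and their SD of 2.42 CPM was the smallest of any day. Its log2 fold changes were 2.02 ± 0.50, 1.63 ± 0.50, 0.49 ± 0.49 and 0.07 ± 0.49.

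Ifit3b stood lowest of the 6, at 9.24, 13.6 and 10.4 CPM untreated. It was at 28.1, 18.5 and 119 CPM on day 1, at 30.9, 55.2 and 29.0 CPM on day 3, at 11.4, 20.1 and 13.5 CPM on day 5 and at 11.9, 8.52 and 12.8 CPM on day 7. The span from the lowest to the highest tumor was 13.9-fold, the widest of the 6. Its log2 fold changes were 2.32 ± 0.57, 1.79 ± 0.56, 0.44 ± 0.55 and 0.00 ± 0.55. Ifit3b made up 17.8% to 26.3% of the summed counts of the pair, with means of 21.4% ± 1.303 (SD, n = 3) on day 0, 23.8% ± 2.98 on day 1 and 23.4% ± 1.09 on day 3. This share did not differ beyond the spread between tumors over the 5 days (exact permutation test, p = 0.326).

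Ifi44 had the highest CPM, with 65.2, 94.8 and 86.5 untreated. It was at 175, 162 and 476 CPM on day 1, at 223, 329 and 205 CPM on day 3, at 134, 168 and 118 CPM on day 5 and at 79.6, 101 and 85.6 CPM on day 7. It was also above every untreated tumor on day 5, which among the 6 was so only for Ifi44 and Ifi35, beside 6.89% of all genes. For Ifi35 the margin was narrow, with 45.8 CPM in its lowest day 5 tumor against 45.2 CPM in the highest untreated one. Its log2 fold changes were 1.72 ± 0.36, 1.62 ± 0.36, 0.77 ± 0.35 and 0.11 ± 0.35.

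Ifi35 stood at 43.0, 44.1 and 45.2 CPM untreated, with the smallest relative spread of the 6 on that day. It was at 59.7, 62.6 and 122 CPM on day 1, at 57.7, 91.4 and 65.7 CPM on day 3, at 61.7, 57.1 and 45.8 CPM on day 5 and at 41.3, 48.3 and 37.0 CPM on day 7. Its differences were the smallest of the 6 on days 1 and 3, with log2 fold changes of 0.89 ± 0.25 and 0.70 ± 0.25, and it was at 0.32 ± 0.25 on day 5 and -0.06 ± 0.25 on day 7.

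**Figure D1:**
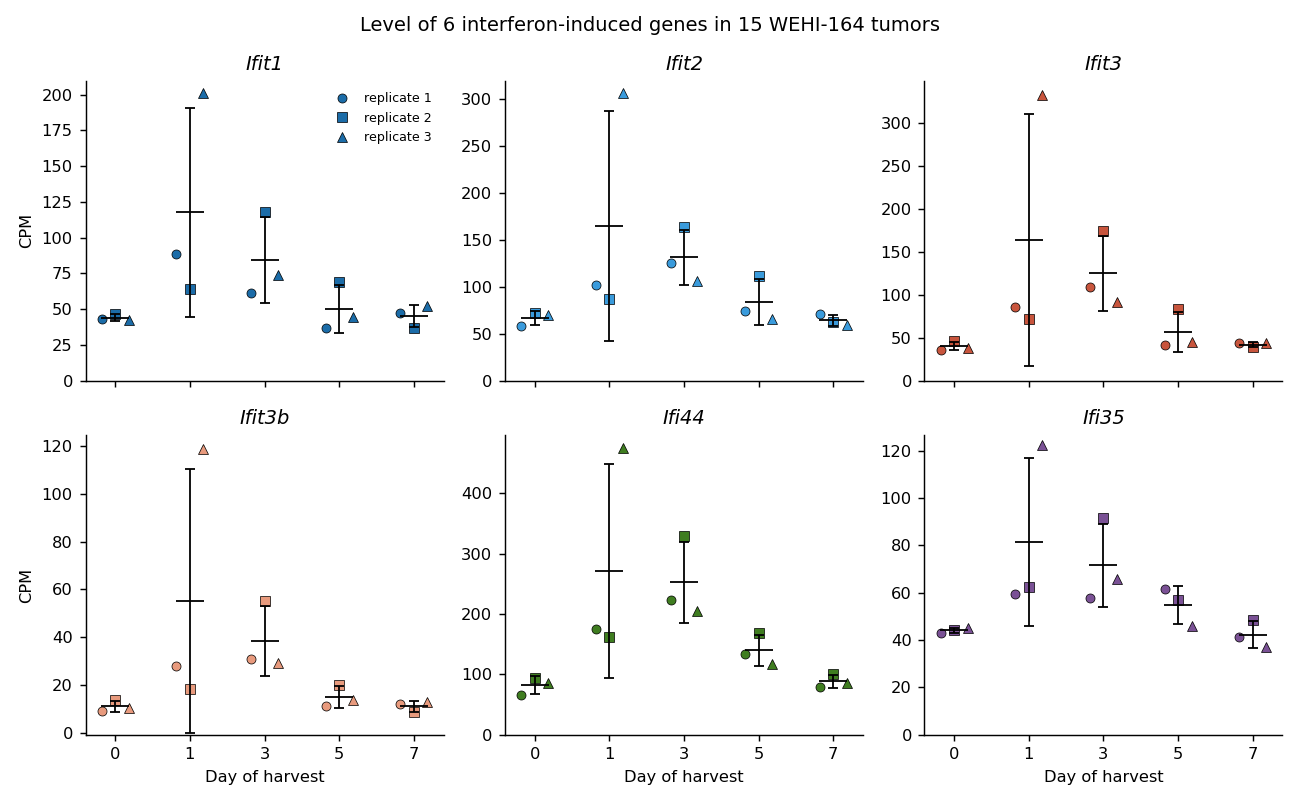
Level (CPM, linear axis) of the 6 genes in each of 15 tumors by day of harvest; symbols mark the replicate number, and bars show the mean ± SD of 3 tumors. Replicate 3 of day 1 is the highest point in every panel, and the day 7 tumors sit at the level of day 0.

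Per kilobase of transcript, the untreated order was Ifi35 at 32.4 ± 0.81 CPM per kb (SD, n = 3), Ifi44 at 28.2 ± 5.25, Ifit3 at 23.1 ± 2.87, Ifit2 at 17.5 ± 2.03, Ifit1 at 16.6 ± 0.94 and Ifit3b at 5.53 ± 1.13. Neighbors in this order overlapped between tumors except Ifit3 with Ifit2 and Ifit1 with Ifit3b. On day 3 the order by the same measure was Ifi44 at 86.8 ± 22.9, Ifit3 at 71.6 ± 25.2, Ifi35 at 52.6 ± 12.95, Ifit2 at 34.4 ± 7.65, Ifit1 at 31.7 ± 11.2 and Ifit3b at 19.2 ± 7.31, and all neighbors overlapped. By mean, Ifi35 thus led before treatment and stood behind Ifi44 and Ifit3 on days 1 and 3. On day 7, Ifi35 at 30.99 ± 4.204 and Ifi44 at 30.4 ± 3.71 overlapped between tumors.

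Day 1 was compared with day 0 first. The 6 log2 fold changes ran from 0.89 (Ifi35) to 2.32 (Ifit3b), with a median of 1.57 beside -0.00024 over all genes. All 6 genes were higher in every day 1 tumor than in every untreated one, as were 5.76% of all genes. At an unadjusted p under 0.05, edgeR gave 6 of 6 genes beside 3.16% of all genes, and its adjusted p ran from 0.641 to 1.00. DESeq2 called Ifi44, Ifit3 and Ifit3b, 3 of 6, beside 0.259% of all genes, with adjusted p from 0.00397 to 0.174, and limma voom with sample quality weights called 0 of 6 and 0% of all genes. Replicate 3 was 2.001-fold (Ifi35) to 5.09-fold (Ifit3b) the mean of the other day 1 tumors. Without it the log2 fold changes were 0.47 for Ifi35, 0.50 for Ifit2, 0.79 for Ifit1, 0.97 for Ifit3, 1.04 for Ifi44 and 1.08 for Ifit3b, and DESeq2 called 1 of 6 beside 0.0325% of all genes. Without replicate 1 of day 3, DESeq2 called 3 of 6 beside 0.481%.

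Day 3 against day 0 gave log2 fold changes from 0.70 (Ifi35) to 1.79 (Ifit3b), with a median of 1.298 beside -0.02 over all genes. All 6 genes were again above every untreated tumor, but so were 19.4% of all genes, and the 6 of 6 genes at an unadjusted edgeR p under 0.05 stood beside 30.0% of all genes. The edgeR adjusted p ran from 0.115 to 0.139. DESeq2 called 3 of 6 (Ifi44, Ifit3 and Ifit3b) beside 13.5% of all genes, and limma voom 5 of 6, all but Ifit2, beside 7.65%. Replicate 3 of day 1 belongs to neither of these days but enters the shared estimate of spread, the scaling and the filter. Leaving it out, edgeR called 3 of 6 beside 0.395%, and DESeq2 called 6 of 6 beside 17.8%. Leaving out replicate 1 of day 3, DESeq2 called 1 of 6 beside 0.553%. For the 6 genes, the highest day 3 tumor was replicate 2, and replicate 1, the tumor that stood apart, was the lowest of its day for 2 of them.

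Days 5 and 7 gave smaller differences. On day 5, 2 of 6 genes (Ifi44 and Ifi35) were above every untreated tumor beside 6.89% of all genes, and 1 of 6 (Ifi44) had an unadjusted edgeR p under 0.05 beside 4.80%. DESeq2 called 0 of 6 beside 0.0742% of all genes, and limma voom called Ifi44 alone beside 15.9%. On day 7, 0 of 6 genes were above every untreated tumor beside 5.02% of all genes. The unadjusted edgeR p was under 0.05 for 0 of 6 beside 2.07%, DESeq2 called 0 of 6 beside 0.0324%, and limma voom 0 of 6 beside 0%. The day 7 log2 fold changes lay between -0.06 and 0.11 with standard errors of 0.25 to 0.55, so day 7 differences of the size of these errors were not detectable with 3 tumors a day.

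**Figure D2:**
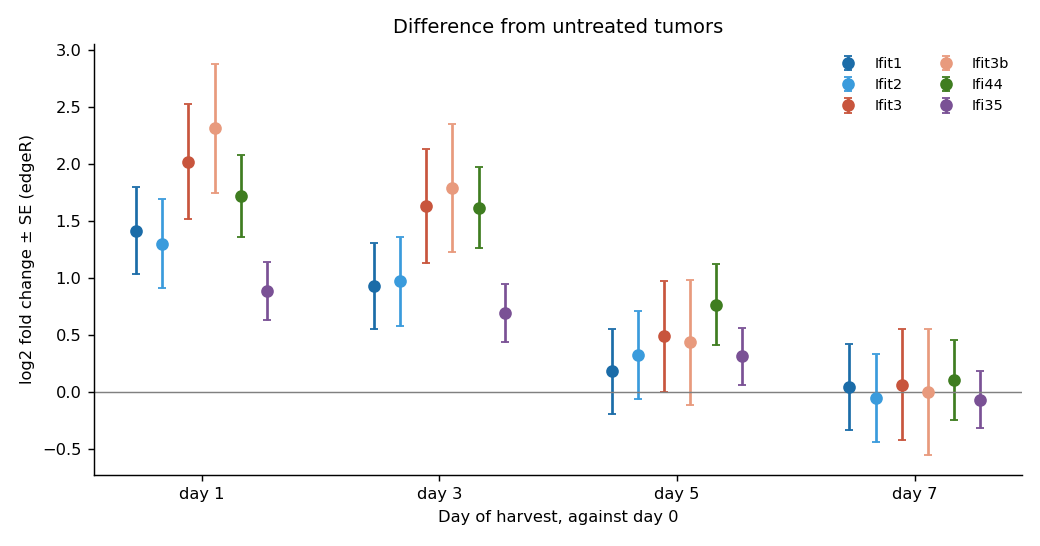
log2 fold change against day 0 with its standard error, from edgeR, for the 6 genes on days 1, 3, 5 and 7. Days 1 and 3 lie between 0.70 and 2.32, day 5 between 0.18 and 0.77, and day 7 between -0.06 and 0.11.

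The treated days were also compared with each other. Day 7 was below day 3 for all 6 genes without overlap between tumors, as for 18.4% of all genes, with log2 fold changes of -0.76 (Ifi35), -0.89 (Ifit1), -1.03 (Ifit2), -1.51 (Ifi44), -1.57 (Ifit3) and -1.79 (Ifit3b). The unadjusted edgeR p was under 0.05 for 6 of 6 beside 35.5% of all genes, and the adjusted p ran from 0.0832 to 0.121. DESeq2 called 5 of 6, all but Ifit1, beside 21.6%, and limma voom called Ifi44 and Ifi35 beside 3.41%. Without replicate 3 of day 1, edgeR called 3 of 6 beside 0.375% and DESeq2 6 of 6 beside 25.0%. Without replicate 1 of day 3, DESeq2 gave an adjusted p to 5 of the 6 genes, not to Ifit3b, and called Ifi44 alone. That stood beside 1.59% of the 5837 genes given an adjusted p in this fit, fewer than in the other fits, so the share is not comparable with theirs.

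The step from day 3 to day 5 gave log2 fold changes from -0.38 (Ifi35) to -1.35 (Ifit3b). Ifi44, Ifit3 and Ifit3b had an unadjusted edgeR p under 0.05, 3 of 6 beside 7.93% of all genes, and DESeq2 and limma voom called 0 of 6 and 0% of all genes. Without replicate 3 of day 1, DESeq2 called 3 of 6 in this step beside 0.250%. From day 5 to day 7 the values ran from -0.14 (Ifit1) to -0.66 (Ifi44), with an unadjusted edgeR p under 0.05 for 0 of 6 beside 3.02%. DESeq2 called 0 of 6 beside 0.0130% there, and limma voom 0 of 6 beside 0%. From day 1 to day 3 the values ran from -0.10 (Ifi44) to -0.52 (Ifit3b), but they depended on 1 tumor, since without replicate 3 of day 1 they ran from 0.15 (Ifit1) to 0.72 (Ifit3b). In that step the unadjusted edgeR p was under 0.05 for 0 of 6 beside 18.4%, DESeq2 called 0 of 6 beside 0.182%, and limma voom 0 of 6 beside 0%. No order of days 1 and 3 can be read from these values.

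In the joint test of the 4 treated days, edgeR gave 6 of 6 genes an unadjusted p under 0.05 beside 16.2% of all genes and an adjusted p of 0.292 for each. DESeq2 called 6 of 6 beside 7.63% and limma voom 6 of 6 beside 24.9%. Taken 1 gene at a time, an exact permutation test over all 1401400 divisions of the tumors into 5 groups of 3 gave unadjusted p-values for a difference between days of 0.00284 for Ifi44, 0.0232 for Ifit3, 0.0238 for Ifit3b, 0.0308 for Ifi35, 0.0348 for Ifit1 and 0.0518 for Ifit2. Harvest day accounted for 56.6% (Ifit2) to 76.8% (Ifi44) of the variance of log2 CPM. Without replicate 3 of day 1 the exact p of Ifit2 was 0.00879, and without replicate 1 of day 3 that of Ifit3 was 0.05003.

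The proportions between the 6 genes were compared next. Within a tumor, the log2 ratio of Ifit3 to Ifit1 was -0.14 ± 0.11 (SD, n = 3), 0.28 ± 0.40, 0.57 ± 0.26, 0.15 ± 0.13 and -0.10 ± 0.18 for days 0, 1, 3, 5 and 7 (exact permutation test over the 5 days, p = 0.0271). For Ifit3b to Ifit1 it was -2.00 ± 0.21, -1.40 ± 0.56, -1.14 ± 0.19, -1.72 ± 0.04 and -2.04 ± 0.06 (exact p = 0.0173). On day 3 both ratios lay above those of day 0 in all 3 tumors. The ratio of Ifi44 to Ifit1 was 0.88 ± 0.25, 1.19 ± 0.18, 1.61 ± 0.23, 1.52 ± 0.31 and 0.97 ± 0.41 (exact p = 0.0429). By mean this ratio was higher on day 5 than on day 0, but the test over the 5 days does not compare single days.

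The ratios of Ifit2 to Ifit1 (exact p = 0.504), of Ifi35 to Ifit1 (exact p = 0.351) and of Ifit3b to Ifit3 (exact p = 0.355) did not pass 0.05. The p-values above are unadjusted, and none of the 6 ratio tests passed after Benjamini-Hochberg adjustment over them, with 0.0814 the lowest adjusted exact p. Without replicate 1 of day 3 the p-values for Ifit3, Ifit3b and Ifi44 to Ifit1 were 0.0797, 0.0353 and 0.0877, and without replicate 3 of day 1 they were 0.00507, 0.00056 and 0.0613. Of the 3, the ratio of Ifit3b to Ifit1 was thus the one whose unadjusted p was under 0.05 in each case. The split of reads between Ifit3 and Ifit3b, on which both of their ratios rest, is an estimate.

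**Figure D3:**
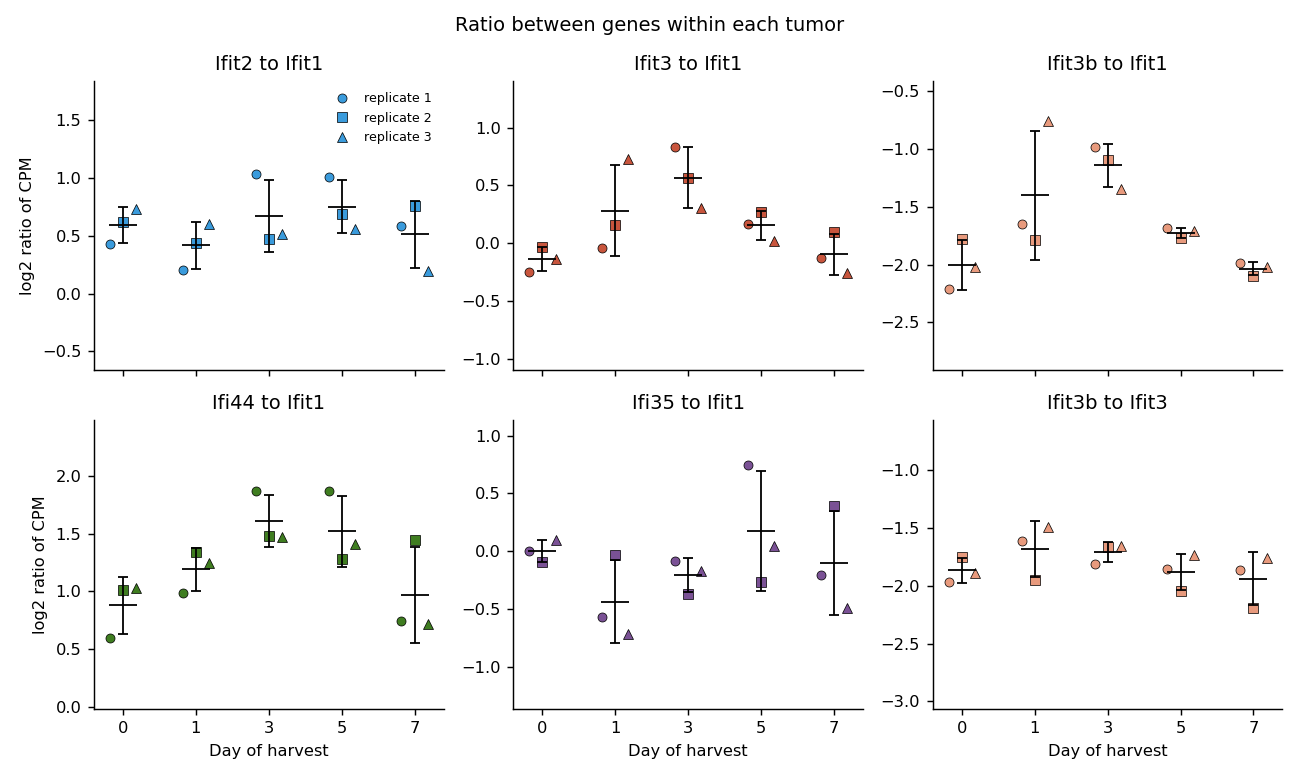
log2 ratio of CPM between pairs of the 6 genes within each tumor by day of harvest, with mean ± SD of 3 tumors; each panel spans the same number of log2 units. The ratios of Ifit3 and Ifit3b to Ifit1 are highest on day 3 by the mean, while Ifit3b to Ifit3 stays between -2.20 and -1.49.

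Over the 15 tumors the 6 genes followed each other closely. Pearson's r of log2 CPM over the 15 pairs ran from 0.858 (Ifit1 and Ifi35) to 0.991 (Ifit3 and Ifit3b), with a median of 0.948, and Spearman's rho from 0.600 to 0.986 for the same pairs. The unadjusted permutation p (100000 resamples, 15 pairs) was at most 0.00016 for r and at most 0.0198 for rho, with 1e-05 the smallest these permutations can give. Tumors were permuted without regard to day, so these p-values do not separate shared differences between days from likeness within days. Without the 2 tumors farthest from the median, r ran from 0.529 to 0.971. Within days, from deviations from the day means, r ran from 0.705 (Ifit1 and Ifi35) to 0.977 (Ifit2 and Ifit3), and without replicate 3 of day 1 from 0.501 to 0.953. The tumors share their library and depth between genes, and Ifit3 and Ifit3b share reads.

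The 10 other genes with the pattern most like the mean of the 6, by Pearson's r over the 15 tumors, were Mx1 (0.987), Ifih1 (0.983), Lgals9 (0.979), Tor3a (0.979), Misp (0.979), Ifi202b (0.976), Phf11d (0.976), Oasl2 (0.975), Oasl1 (0.974) and Oas1a (0.974). Mx1 is a GTPase that blocks virus replication, Ifih1 encodes the RNA sensor MDA5, and the Oas and Oasl genes encode the oligoadenylate synthetase family. Mx1 also ranked 1 of 15488 by r of deviations from the day means, at 0.983, and Oasl1 ranked 2 at 0.970. Without replicate 1 of day 3, 6 of these 10 genes stayed among the 10 highest.

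The nearest genes differed between members. Ifit1 was closest to Mx2 (r = 0.991), Cmpk2 (0.978) and Usp18 (0.974), and Ifit2 to Mx1 (0.985), Ifit3 (0.984) and Tor3a (0.982). Ifit3 had Ifit3b (0.991), Ifit2 (0.984) and Tor3a (0.977) nearest, and Ifit3b had Ifit3 (0.991), Ifit2 (0.973) and Mx2 (0.971). Ifi44 was closest to Oas1a (0.994), Oas3 (0.984) and Oasl2 (0.984). Ifi35 was closest to Ifitm3 (0.976), Ifi204 (0.973) and Cxcl11 (0.972), none of them a gene of the other 5. These are ranks by likeness alone.

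The relatives in the cluster, Ifit1bl1 and Ifit1bl2, stood below all 4 Ifit genes in the mean of every day. Ifit1bl1, which lies between Ifit3 and Ifit3b, stood at 0.776, 1.12 and 1.72 CPM untreated, at 3.58, 1.12 and 23.95 CPM on day 1 and at 6.93, 9.93 and 3.11 CPM on day 3. Its day 1 log2 fold change of 2.99 ± 0.90 was the highest of the cluster, with replicate 3 at 10.2-fold the mean of the other day 1 tumors, and day 3 gave 2.47 ± 0.89. The windows of Ifit1bl1 also held the longer core. The start of Ifit1bl2 lies head to head with that of Ifit1. Their windows overlap, and the 2 matches of the longer core in that of Ifit1bl2 are the same sites as those of Ifit1, read on the other strand. Ifit1bl2 gave 1.12 ± 0.31 for day 1, 0.66 ± 0.31 for day 3 and -0.08 ± 0.31 for day 5. Ifi44l, next to Ifi44, gave 1.38 ± 0.40 for day 1, 1.86 ± 0.40 for day 3 and 1.06 ± 0.40 for day 5, and its mean of 88.4 ± 19.9 CPM on day 3 was above that of day 1, 63.3 ± 38.2.

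**Figure D4:**
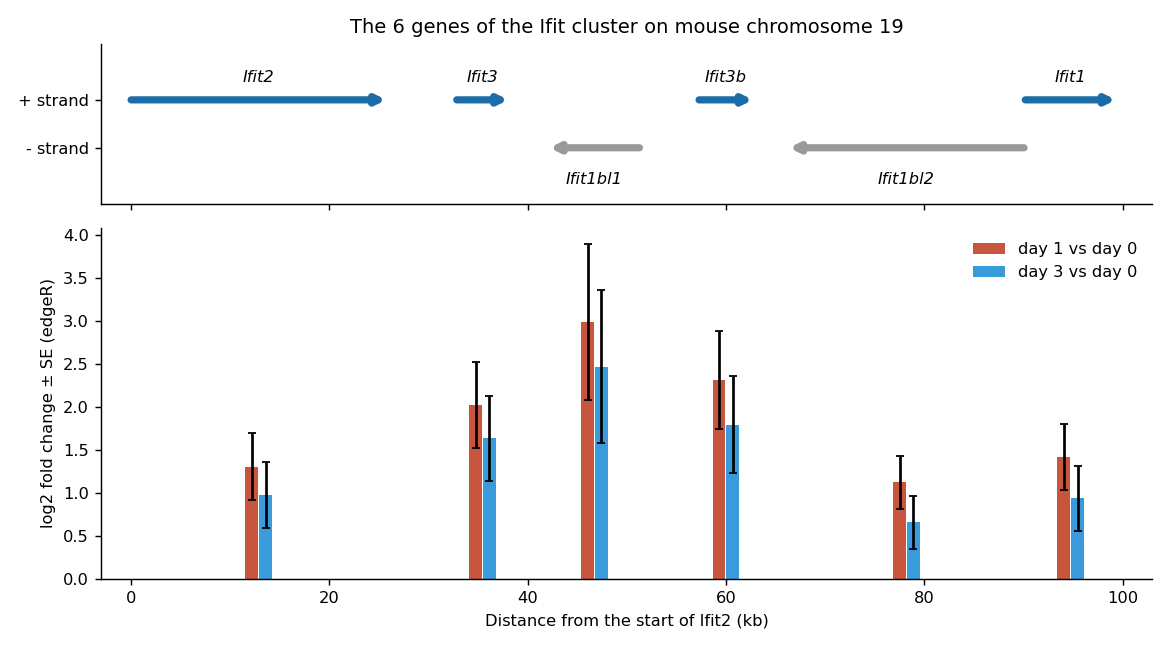
The 6 genes of the Ifit cluster by distance from the start of Ifit2 (upper panel, arrows in the direction of transcription) and their log2 fold change ± SE against day 0 on days 1 and 3 (lower panel, bars from 0). Ifit1bl1, Ifit3b and Ifit3, in the middle of the cluster, have the highest values on both days.

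Other relatives by name were Ifi27l2a, at 1.76 on day 1 and 2.48 on day 3, Ifi47 at 0.69 and 0.80, Ifi27 at 0.40 and 0.30, and Ifi30, a lysosomal thiol reductase, at 0.16 and 1.15 (log2 fold changes). Ifi27l2b had 0 to 5 counts a tumor and was not tested. Of the 7 relatives tested, 6 had an unadjusted edgeR p under 0.05 on day 1 and 6 on day 3, all higher. DESeq2 called 0 of 7 on day 1 and 3 of 7 on day 3. Over all genes these shares were 3.16% and 30.0% for the unadjusted edgeR p and 0.259% and 13.5% for DESeq2, on days 1 and 3.

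Among the receptor and its signaling chain, the log2 fold change on day 1 was highest for the transcription factor Stat2 at 1.10, and its partner Irf9 was at 0.54. The receptor chains Ifnar1 and Ifnar2 were at 0.04 and 0.31, and the kinases Jak1 and Tyk2 at 0.06 and 0.17. On day 3, Stat2 and Irf9 were at 0.96 and 0.58, Ifnar1 and Ifnar2 at 0.31 and 0.93, and Jak1 and Tyk2 at 0.23 and 0.63. Of the 7 genes tested in this list, 3 had an unadjusted edgeR p under 0.05 on day 1, all higher, and DESeq2 called 0. On day 3 it was 5 of 7, and DESeq2 called 3, beside 30.0% and 13.5% of all genes by the same rules and 3.16% and 0.259% at day 1.

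Among the interferon regulatory factors, Irf7, which amplifies interferon production, was highest at 2.32 on day 1 and 2.63 on day 3, and Irf3, which is held ready as protein, was lowest at -0.04 and 0.22. Of the 6 factors DESeq2 called 1 (Irf7) on day 1 beside 0.259% of all genes and 3 on day 3 beside 13.5%. Among 5 feedback inhibitors, Usp18, which blocks the type I receptor, was highest at 1.71 on day 1 and Ptpn2, a phosphatase, lowest at -0.06. DESeq2 called Usp18 alone on days 1 and 3, beside those same shares of all genes.

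The sensors of double-stranded RNA were led by Dhx58, encoding LGP2, at 1.47 on day 1 and 1.43 on day 3. Ifih1 was at 0.90 and 0.84, Ddx58, encoding RIG-I, at 0.81 and 0.50, Tlr3, the endosomal receptor, at 0.75 and 0.75, and Eif2ak2, the kinase PKR, at 0.51 and 0.29. The adaptors Mavs and Ticam1 were at 0.07 and 0.15 on day 1 and -0.10 and 0.33 on day 3, and the kinase Tbk1 at 0.12 and 0.41. Of these 8 genes, 5 had an unadjusted edgeR p under 0.05 on each of these days, all higher, and DESeq2 called 3 on day 1 and 5 on day 3. The 5 genes stood beside 3.16% of all genes for day 1 but 30.0% for day 3, and the DESeq2 counts beside 0.259% and 13.5%.

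The 24 other type I interferon target genes gave 1.32 as the median log2 fold change for day 1, from 0.66 (Parp9) to 2.02 (Rsad2, encoding viperin), beside 1.57 for the 6 genes. On days 3, 5 and 7 the medians were 1.14, 0.43 and -0.04 beside 1.298, 0.38 and 0.02. DESeq2 called 11 of 24 on day 1 and 20 of 24 on day 3, beside 0.259% and 13.5% of all genes. All 24 were above every untreated tumor on both days, as were 5.76% of all genes on day 1 and 19.4% on day 3. These targets were chosen with earlier results of these data known, so their direction is not independent of those results. Nmi, the partner of Ifi35, gave log2 fold changes of 0.57, 0.61, 0.28 and -0.13 for the 4 treated days, beside 0.89, 0.70, 0.32 and -0.06 for Ifi35.

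**Figure D5:**
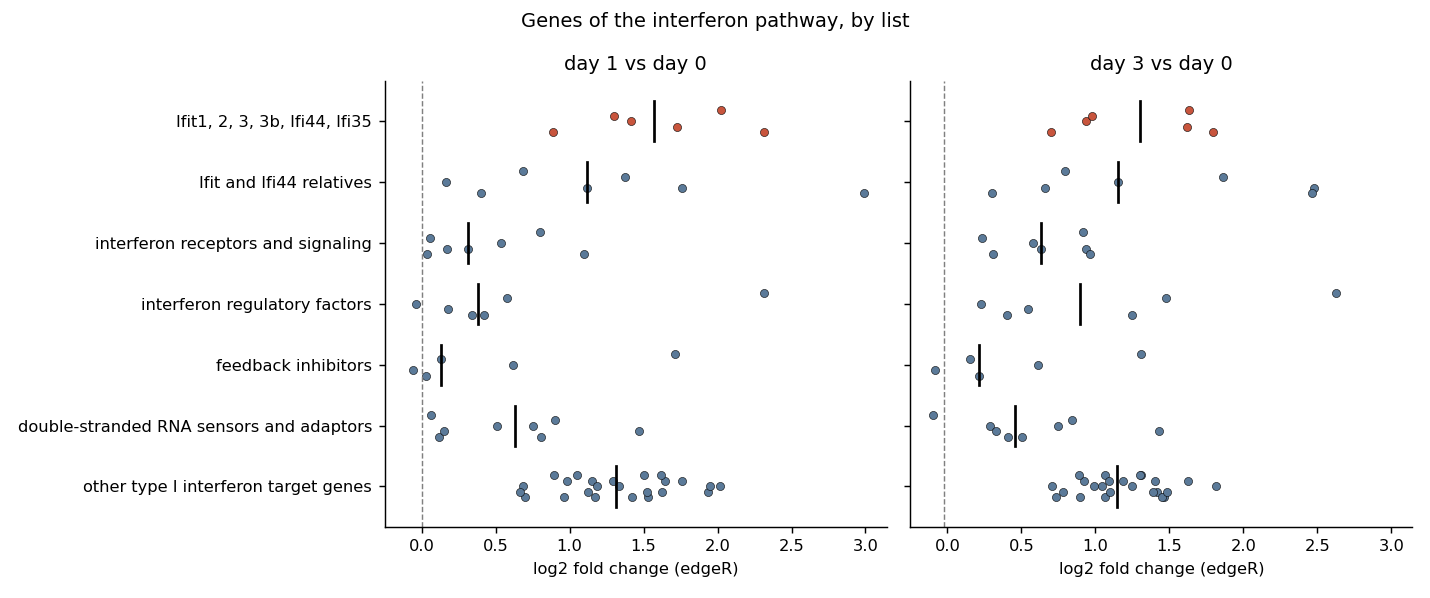
log2 fold change (edgeR) on day 1 and day 3 for each tested gene of the interferon pathway by list; the vertical bars are list medians and the dashed line is the median of all genes. The 6 genes and the other target genes lie between 0.66 and 2.32 on day 1, and the receptor and signaling genes between 0.04 and 1.10.

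The ligands themselves were scarcely measured. Ifnb1, encoding interferon beta, had 1 to 21 counts a tumor, the alpha interferons Ifna1 and Ifna4 at most 1 count, and Ifna2, Ifna5, Ifnl2 and Ifnl3 0 counts in all 15 tumors, where the 3 counts of a detection floor correspond to 0.0972 to 0.125 CPM. This floor covers counting error only. The mean of Ifnb1 was 0.251 ± 0.372 CPM (SD, n = 3) on day 1 and 0.0595 to 0.120 CPM on the other days. Ifng, encoding interferon gamma, had 17 to 226 counts, with log2 fold changes of 0.65 ± 0.71 (SE), 1.58 ± 0.72, 1.12 ± 0.71 and -0.49 ± 0.72 for the 4 treated days.

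In every list of immune cell markers the day 3 mean was above that of day 0, but the day 1 tumors overlapped the untreated ones. On day 1, 3 of 6 dendritic cell genes and 2 of 4 B cell genes had a higher mean than on day 0. The 5 monocyte genes summed to 194 to 306 CPM on day 0, 295 to 733 on day 1, 420 to 810 on day 3, 296 to 474 on day 5 and 170 to 314 on day 7, and 5 of 5 had a higher mean on days 1, 3 and 5 than on day 0. The 7 macrophage genes summed to 1534 to 1667 CPM on day 0, 1210 to 2424 on day 1 and 2479 to 6431 on day 3, with 6 of 7 higher by mean on each of these days. Ptprc, the pan-leukocyte gene, stood at 108, 178 and 157 CPM untreated and at 116, 138 and 276 CPM on day 1. For Ptprc, replicates 1 and 2 of day 1 were within the untreated range and replicate 3 was above it.

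On day 1, replicate 3 was the highest of its day in 12 of 14 marker lists and in 6 of 6 of the genes. On day 3, replicate 1 was the highest in 12 of 14 lists and in 0 of 6 of the genes. Of all the marker genes, Klra8, of natural killer cells, was at 0 in all tumors of days 0, 1, 3 and 7, and Krt5, of keratinocytes, in those of days 1 and 7. The fibrosarcoma or fibroblast list was high throughout, at 7517 to 28117 CPM, with the highest value in replicate 1 of day 3. The skeletal muscle list reached 2160 CPM in the same tumor, the one that stood apart, and was at most 137 CPM on the other days. The adipocyte list was also highest in that tumor, at 227 CPM. The part of cell composition in the levels of the 6 genes was not tested.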

How the data were processed

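Poly(A) RNA of 15 WEHI-164 tumors, 3 for each of 5 harvest days, was sequenced by the authors as 100-base single-end reads. Per the labels and the study's methods, read quality was checked with FastQC and transcript abundance was estimated with kallisto against a GRCm38 transcript set, then summed to genes with tximport. The authors deposited estimated counts as whole numbers. The transcript set and strandedness are not given in the sources used here. Abundance estimation splits reads shared by near-identical transcripts. One of 32544 rows carried a date in place of a gene name (0.0202% to 0.0268% of a library) and was left out.

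Genes above 0.366 CPM in at least 3 tumors were fitted with edgeR 4.0.16 (quasi-likelihood test, TMM factors, harvest day, all 15 tumors, R 4.3.3), two-sided, with Benjamini-Hochberg adjustment over 15494 genes and 0.05 as threshold. The log2 CPM used a prior count of 2. DESeq2 1.42.0, limma 3.58.1 (voom with sample quality weights), other scalings, no filter, a replicate term, the compared days alone, the pair Ifit3 and Ifit3b summed, and each tumor left out in turn were the alternatives. DESeq2 and the exact tests without 2 single tumors were added after seeing the data. The script of the main test was tested on simulated data. Groups came from the labels' time points, and replicate numbers were not taken as pairs in the main fit. Nothing states that tumors came from separate cages or inoculations, so p-values measure the spread between these tumors. Promoters came from RefSeq and loci and transcripts from GENCODE, both on GRCm38, and 96.5% of the table's symbols matched GENCODE. The 6 genes, the pathway and marker lists and the rule for named genes (the 6 genes in every comparison, all relatives, signaling genes and sensors, the highest and lowest of longer lists on day 1, and the nearest genes by r) were chosen with earlier results of these data known. One gene of the signaling list is not reported here by name.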

Additional observations from a re-analysis of the deposited data

How the results depend on the processing

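The number of the 6 genes called was 0 in all 9 comparisons with edgeR under no filter, other scaling factors and the sum of Ifit3 and Ifit3b, and in the 8 between single days fitted on the compared days alone, which was not run for the joint test. With DESeq2 it was 3 on day 1 (0.259% of all genes), 3 on day 3 (13.5%), 5 for day 7 against day 3 (21.6%) and 6 in the joint test (7.63%). With limma voom it was 5 on day 3 (7.65% of all genes), 1 on day 5 (15.9%), 2 for day 7 against day 3 (3.41%) and 6 in the joint test (24.9%). DESeq2 without replicate 1 of day 3 (leave-one-out) gave 3 on day 1 (0.481% of all genes), 1 on day 3 (0.553%) and 1 for day 7 against day 3. In the last comparison Ifit3b was given no adjusted p, and the share was 1.59% of 5837 genes. DESeq2 without replicate 3 of day 1 gave 1 on day 1 (0.0325% of all genes) and 6 on day 3 (17.8%). It gave 6 for day 7 against day 3 (25.0%) and 3 for day 5 against day 3 (0.250%). Leaving out each tumor in edgeR gave 0 to 3 on day 3, 0 to 3 for day 7 against day 3, and 0 in the other 7. The highest counts came without replicate 3 of day 1, beside 0.395% and 0.375% of all genes. Without replicate 3 of day 3, 1 of 6 was called for day 7 against day 3, beside 2104 of 15439 genes. The lowest quality weights of limma voom were 0.0719 for replicate 1 of day 3 and 0.314 for replicate 3 of day 1. Its results and those without these tumors are therefore not independent checks. With fewer or reweighted tumors the estimate of spread changes by construction, and no other cause was tested. A correlation of deviations above 0.1 was found in 9 of 30 same-numbered pairs of tumors against 28 of 60 other pairs. These values gave no sign of pairing by replicate number, but they cannot exclude a shared cage or inoculation. The replicate block left 0 genes called in all 9 comparisons.

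The direction of day 3 against day 1 turned under limma voom, to 0.23 for Ifit1, 0.37 for Ifit2, 0.52 for Ifit3, 0.66 for Ifit3b, 0.49 for Ifi44 and 0.22 for Ifi35, and under DESeq2 without replicate 3 of day 1, to 0.16, 0.50, 0.69, 0.74, 0.60 and 0.25. With each tumor left out it ranged from -0.81 to 0.15 for Ifit1, -0.63 to 0.48 for Ifit2, -0.75 to 0.67 for Ifit3, -0.93 to 0.72 for Ifit3b, -0.37 to 0.59 for Ifi44 and -0.41 to 0.23 for Ifi35. Day 7 against day 0 ranged from -0.064 to 0.17 for Ifit1, -0.15 to 0.0050 for Ifit2, -0.0025 to 0.17 for Ifit3, -0.12 to 0.18 for Ifit3b, -0.033 to 0.22 for Ifi44 and -0.17 to 0.023 for Ifi35, and library totals alone gave -0.000433 for Ifit3b. Ifit1 ranged from -0.12 to 0.36 for day 5 against day 0 and from -0.32 to 0.16 for day 7 against day 5. No other fold change of the 6 genes changed sign under these settings. Without replicate 1 of day 3 or replicate 3 of day 1, the exact p over the days ranged from 0.00879 to 0.0714 for Ifit2 and from 0.00405 to 0.05003 for Ifit3, from 0.00507 to 0.0797 for the ratio of Ifit3 to Ifit1 and from 0.0613 to 0.0877 for that of Ifi44 to Ifit1. Of the 10 genes most like the 6, 6 to 10 stayed among the 10 with each tumor left out, the fewest without replicate 1 of day 3. Each gene had at least 224 counts in every library, and with 3 tumors a day an exact permutation test of 1 day against another cannot go below p = 0.1.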
